A study of Mus musculus with 3 samples.

Results

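The genes described here are 9 inhibitors of Wnt signaling, chosen by name among the 31053 genes of the deposited matrices: *Sfrp1*, *Sfrp2*, *Sfrp4*, *Sfrp5*, *Frzb*, *Dkk2*, *Dkk3*, *Wif1* and *Nkd2*. All 9 were detected in some cell. Their unique molecular identifiers (UMIs, 1 per captured transcript) were counted in single cells of the mouse iridocorneal angle and corneal limbus, where aqueous humor leaves the eye through the trabecular meshwork (TM) into the canal of Schlemm (SC). Eyes came from control mice (*Angpt1* flox/flox) and from *Angpt1*ΔNC mice (*Angpt1* flox/flox;*Wnt1Cre*+), in which *Wnt1Cre* deletes *Angpt1* in cells of the neural crest lineage. All mice were 6 weeks old, had been crossed to the albino ICR strain, and carried the floxed *Angpt1* alleles in both groups. The eyes of 2 to 3 mice were pooled for a library, and there were 2 control libraries (control replicates 1 and 2) and 1 *Angpt1*ΔNC library.

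Wnt ligands are secreted proteins that bind Frizzled receptors with the co-receptors LRP5 or LRP6 and stabilize β-catenin, which then activates target genes with TCF and LEF factors. Secreted frizzled-related proteins (*Sfrp1*, *Sfrp2*, *Sfrp4*, *Sfrp5* and *Frzb*) and *Wif1* can bind the ligands outside the cell, while Dickkopf proteins such as DKK2 bind the LRP co-receptors. DKK3 is a divergent Dickkopf protein with a less clear part in the pathway. *Nkd2* encodes an intracellular protein that binds Dishevelled, so that 8 of the 9 genes encode secreted proteins. In the eye, SFRP1 is known for raising intraocular pressure when it is overexpressed in the outflow pathway.

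Levels are the mean over the cells of a label of the gene's UMIs per 10,000 UMIs of the cell. The label of a kept cell is its deposited cluster. The authors kept 9076, 10160 and 6772 cells in control replicate 1, control replicate 2 and *Angpt1*ΔNC, with a median of 6329.5, 6393.5 and 7444 UMIs per cell. From 13 to 25 barcodes were shared between pairs of libraries. *Angpt1*, the deleted gene, had 37.8 and 39.3 UMIs per 1,000,000 in the controls and 0.391 in *Angpt1*ΔNC. *Xist*, which marks female cells, had 0.0390 and 0.0249 UMIs per 1,000,000 in the controls and 652 in *Angpt1*ΔNC. By *Xist* and Y-linked UMIs, 1 kept control cell was typed as female, while the *Angpt1*ΔNC library held 3861 female and 1990 male cells, so sex differed along with genotype. Results were therefore also computed for male-typed cells. The library is the replicate, and an exact permutation of 2 libraries against 1 cannot give a one-sided p below 0.333. Genotype was therefore tested with edgeR's quasi-likelihood test on UMIs summed per library, with Benjamini-Hochberg adjustment over all genes, under the assumption that libraries of *Angpt1*ΔNC vary as much as those of the controls.

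The genes lie on separate chromosomes for the most part. In build GRCm38, *Sfrp2* (ENSMUSG00000027996, chr3:83766321-83774316) and *Dkk2* (ENSMUSG00000028031, chr3:132085292-132180304) share chromosome 3. *Sfrp4* (ENSMUSG00000021319, chr13:19623104-19632994) and *Nkd2* (ENSMUSG00000021567, chr13:73818534-73847631) share chromosome 13. *Sfrp1* (ENSMUSG00000031548) is at chr8:23411502-23449632 and *Wif1* (ENSMUSG00000020218) at chr10:121033960-121100650. *Dkk3* (ENSMUSG00000030772) is at chr7:112116017-112159057. *Frzb* (ENSMUSG00000027004) is at chr2:80411970-80447625 and *Sfrp5* (ENSMUSG00000018822) at chr19:42197971-42202252. All are annotated as protein coding, and none overlaps a gene on its own strand.

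Upstream sequences are shown for *Sfrp2* and *Dkk2*, which moved in opposite directions in TM10, and for *Nkd2*, which was higher in *Angpt1*ΔNC in 4 labels. Each run is the 250 bases before the RefSeq start, 5′ to 3′ on the gene's strand (GRCm38, chr3:83766071-83766320 plus strand, chr3:132085042-132085291 plus strand and chr13:73847632-73847881 minus strand). Capitals mark the TCF/LEF core (CTTTGA or CTTTGT) and the TATA box (TATAAA), searched on both strands.
Sfrp2: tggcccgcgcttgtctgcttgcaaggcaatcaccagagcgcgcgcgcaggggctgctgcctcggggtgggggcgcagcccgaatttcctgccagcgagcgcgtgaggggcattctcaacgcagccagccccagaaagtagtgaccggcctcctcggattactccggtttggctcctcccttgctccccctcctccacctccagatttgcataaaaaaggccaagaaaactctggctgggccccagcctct
Dkk2: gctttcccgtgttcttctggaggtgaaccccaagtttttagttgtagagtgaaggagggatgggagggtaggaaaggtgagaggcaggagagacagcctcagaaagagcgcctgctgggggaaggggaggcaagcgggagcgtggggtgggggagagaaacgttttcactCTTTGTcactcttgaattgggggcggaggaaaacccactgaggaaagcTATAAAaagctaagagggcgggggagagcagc
Nkd2: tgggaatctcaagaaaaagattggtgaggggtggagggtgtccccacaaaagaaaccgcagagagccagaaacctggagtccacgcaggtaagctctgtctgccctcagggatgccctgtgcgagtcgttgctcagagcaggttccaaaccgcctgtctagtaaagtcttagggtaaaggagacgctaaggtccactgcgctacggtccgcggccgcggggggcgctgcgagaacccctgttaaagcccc
The *Dkk2* sequence held CTTTGT from base 80 before the start and TATAAA from base 32 before it, and these letters were not found in the *Sfrp2* and *Nkd2* windows. Of 32851 RefSeq promoters cut to the same length, 27.6% held the TCF/LEF core and 12.4% the TATA box. A match is a description of the letters and not of a bound site. RefSeq entries were matched for 6 of the 9 genes.

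In the controls each gene had its own set of labels. *Sfrp1* was widest, in ciliary and surface epithelium and in TM cells. *Sfrp2* and *Dkk2* were highest in stroma, *Nkd2* in corneal endothelium and then in TM, and *Wif1* in ciliary epithelium and then in stroma and TM. *Dkk3* was highest in pigmented cells, *Sfrp4* in *Cd34* *Clec3b* stroma, and *Sfrp5* in retinal pigment epithelium and glia. Since the labels came from clustering these cells, levels across labels are given as a description with no test. Levels are compared within a gene only.

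**Figure D1:**
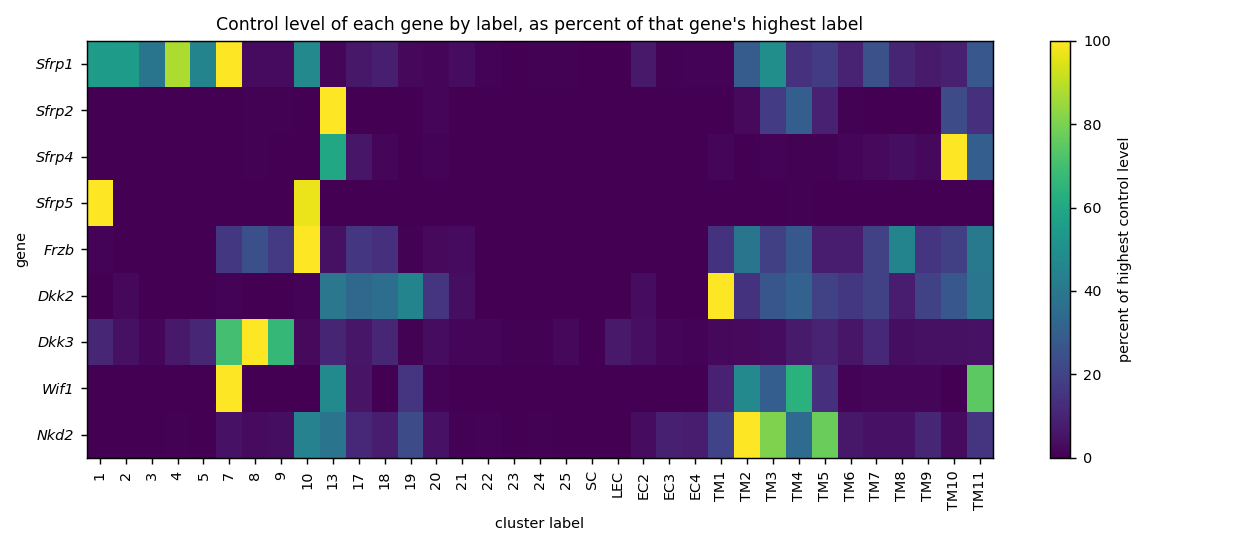
Heat map of the control level (mean of the 2 control libraries) of each gene (rows) in the 35 cluster labels (columns), as a percent of that gene's highest label, from 0 to 100. *Sfrp5* is bright in labels 1 and 10, *Dkk3* in labels 7 to 9 and *Nkd2* in TM2, TM3 and TM5, while labels 22 to 25 and SC are dark for all 9 genes.

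*Sfrp1* was highest in cluster 7, the ciliary epithelium, at 4.67 in both control libraries and 1.32 in *Angpt1*ΔNC. Limbal epithelium (cluster 4) followed at 4.18 and 4.02 in the controls and 1.82 in *Angpt1*ΔNC. These top positions did not overlap with each other or with the labels that followed. Retinal pigment epithelium (cluster 1) at 2.93 and 2.22, cycling limbal epithelium (cluster 2) at 2.37 and 2.76, the trabecular group TM3 at 2.63 and 2.00, glia (cluster 10) at 2.43 and 1.97 and corneal epithelium (cluster 5) at 2.08 and 2.15 overlapped from neighbour to neighbour. In cluster 4, 94.9% (95% Clopper-Pearson interval 92.4 to 96.8) and 94.1% (91.7 to 96.0) of control cells and 84.2% (81.2 to 87.0) of *Angpt1*ΔNC cells had an *Sfrp1* UMI, at median depths of 14480.5, 12359 and 14092 UMIs. Leukocytes (clusters 22 to 25), which served as the background of free RNA, had an *Sfrp1* UMI in 1.51%, 0.887% and 1.38% of cells at median depths of 6008, 5873 and 6226 UMIs. Intervals cover counting error only. The surface epithelium (clusters 2 to 5) held 56.2%, 64.0% and 71.5% of all *Sfrp1* UMIs of control replicate 1, control replicate 2 and *Angpt1*ΔNC.

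*Sfrp2* had its highest level in cluster 13, the *Thbs4* *Comp* stroma, at 39.4 and 28.8 in the controls and 26.4 in *Angpt1*ΔNC. The *Myoc*-high meshwork TM4 came next at 10.0, 10.5 and 13.2. TM10, the *Cd34* *Clec3b* stroma, had 8.38 and 7.26 in the controls and 0.898 in *Angpt1*ΔNC. The controls did not overlap among these top labels, whereas TM3 (6.76 and 5.10) overlapped with the complement-rich stroma TM11 (5.56 and 3.69). The *Tnc*-high meshwork TM5 had 3.17 and 2.99, corneal endothelium (TM2) 0.978 and 0.672, and pericytes (cluster 20) 0.587 and 0.50.

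*Sfrp4* had its highest control mean in TM10, at 2.91 and 2.96 in the controls and 1.76 in *Angpt1*ΔNC. In cluster 13 the control libraries lay far apart, at 3.1 in control replicate 1 and 0.410 in control replicate 2, and the same held in TM11, at 1.72 and 0.0437. The control ranges of these labels overlapped, that of cluster 13 with TM10 included, so that their order was not resolved. *Sfrp5* was all but limited to cluster 1 (0.602 and 0.320 in the controls, 0.0452 in *Angpt1*ΔNC) and to glia in cluster 10 (0.533, 0.363 and 0.689), with 272 UMIs in all cells of the series. *Frzb* was low throughout, with 487 UMIs in the series and its highest control level in glia at 0.135 and 0.257, where *Angpt1*ΔNC had 0.0464.

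*Dkk2* was highest in TM1, which holds keratocytes by *Kera* and *Lum*, at 2.89 and 2.70 in the controls and 1.66 in *Angpt1*ΔNC. It was followed by smooth muscle (cluster 19) at 1.09, 1.44 and 1.20. Below TM1, each label down to TM10 overlapped with the next. *Dkk3* was highest in the *Tyrp1* *Kcnj13* pigmented cells (cluster 8) at 5.58, 5.17 and 5.59. The ciliary epithelium at 4.59, 2.96 and 5.08 and melanocytes (cluster 9) at 3.67, 3.48 and 4.56 overlapped in the controls. Next was TM7 at 0.650 and 0.572, so that *Dkk3* was far lower outside these labels. Cluster 8 alone held 51.9%, 52.1% and 45.7% of all *Dkk3* UMIs.

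*Wif1* varied widely between the controls in some labels. It had 2.82 and 1.35 in cluster 7, its highest label by the control mean, 2.29 and 0.830 in TM11, and 0.209 and 1.77 in cluster 13, all wider than its spread in TM4 (1.16 and 1.5) or TM2 (0.877 and 1.09). The first 5 labels of *Wif1* overlapped from neighbour to neighbour. *Nkd2* was steady, with 2.63 and 2.52 in corneal endothelium (TM2), 2.13 and 2.03 in TM3 and 2.06 and 1.91 in TM5, of which TM3 and TM5 overlapped. TM4 had 0.852 and 0.953 in the controls and 1.72 in *Angpt1*ΔNC.

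The endothelium of SC was almost free of these transcripts. The 46 SC cells of control replicate 1 held 1 UMI of the 9 genes, from *Dkk3*, in 551154 UMIs, and the 63 SC cells of control replicate 2 held 0 in 679877. The 15 SC cells of *Angpt1*ΔNC held 1 UMI, from *Nkd2*. Over SC, lymphatic and blood endothelium together, *Nkd2* gave 42 of 80, 49 of 72 and 17 of 35 member UMIs in control replicate 1, control replicate 2 and *Angpt1*ΔNC. Its levels in the *Plvap* *Ihh* blood endothelium EC3 were 0.217, 0.226 and 0.103. Among leukocytes, 5.62%, 4.53% and 4.62% of cells had a UMI of any of the 9 genes, at median depths of 6008, 5873 and 6226 UMIs. In TM4, 94.1%, 97.0% and 95.8% of cells had a UMI of at least 1 of the 8 secreted antagonists. The TM4 cells were deeper, at medians of 8341, 8884 and 9225 UMIs, so these shares differ in genes counted and in depth. After thinning each cell to 2000 UMIs, the TM4 shares were 74.7%, 69.1% and 75.3%, and 30.6%, 30.3% and 26% of thinned TM4 cells had UMIs of 2 or more of them.

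Genes with the pattern most like each member were ranked by Pearson's r over the 35 labels, on log2 of the control level plus 0.1. These values describe clusters of the same libraries and have no test. *Sfrp1* was most like *F3* (r = 0.74), the tissue factor gene. *Sfrp2* was most like *Wisp2* (r = 0.88), *Mmp3* (r = 0.84), a matrix metalloproteinase, and *Il11ra1* (r = 0.83). *Sfrp4* followed *Epyc* (r = 0.95), a small leucine-rich proteoglycan, and *Clec3b* (r = 0.92). *Sfrp5* followed *Dlgap1* (r = 0.92), and *Frzb* followed *Gpm6b* (r = 0.77), a glial membrane protein gene. *Dkk2* was most like *Zfhx4* (r = 0.93), the mesenchymal factor *Twist1* (r = 0.92) and *Col6a1* (r = 0.92), and *Dkk3* was most like the melanosome genes *Tyrp1* and *Mlana* (r = 0.79 for both). *Wif1* was most like *1500015O10Rik* (r = 0.81) and *Nkd2* like *Ssh1* (r = 0.84). Among the members, the closest pair was *Sfrp2* and *Sfrp4* (r = 0.69), followed by *Wif1* and *Nkd2* (r = 0.67).

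The comparison of genotypes asked how the levels differed where neural crest-derived cells lacked *Angpt1*. In the stromal class (TM1 to TM11 summed), *Sfrp1* fell and *Nkd2* rose in *Angpt1*ΔNC, and the other members tested did not pass. *Sfrp1* had 0.993 and 0.788 UMIs per 10,000 of the class in the controls and 0.533 in *Angpt1*ΔNC (log2 fold change -0.73, SE 0.17, edgeR adjusted p = 0.0315). *Nkd2* had 0.885, 0.972 and 1.42 (log2 fold change 0.62, SE 0.15, edgeR adjusted p = 0.0425). For both genes *Angpt1*ΔNC lay outside the range of the controls. Over all 13942 genes tested, 5686 lay below both controls and 5436 above both, so this position was common. Of the 13942 genes tested in the class, 8.97% were called, against 2 of 8 members tested. *Sfrp5*, with 3 UMIs in the class, was below the filter on low counts. *Sfrp2* had 2.90 and 2.66 in the controls and 3.13 in *Angpt1*ΔNC (log2 fold change 0.18, SE 0.14, edgeR adjusted p = 0.477). In the sum of a whole class, fewer cells of a label and less RNA per cell cannot be told apart. The make-up of the class differed between the groups. TM7 was 23.8% and 22.2% of its cells in the controls and 8.94% in *Angpt1*ΔNC, and TM8 was 21.1%, 18.4% and 7.97%. Shares were larger in *Angpt1*ΔNC for TM9 (7.28%, 8.97% and 16.8%) and TM4 (10.2%, 9.93% and 16.0%). DESeq2 called *Sfrp1* and not *Nkd2* (DESeq2 adjusted p = 0.0513). In another fit, equal numbers of cells of each label were drawn from each library, so that every label had the same share in all libraries. There the *Nkd2* difference was 0.40 and did not pass. With male-typed cells both passed, and so did *Sfrp4* (log2 fold change 1.02, higher in *Angpt1*ΔNC), and with the female-typed *Angpt1*ΔNC cells alone *Sfrp1* did not pass (-0.58).

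Within single labels, 28 of the 140 member and label pairs that passed the filter on low counts were called, 15 lower and 13 higher in *Angpt1*ΔNC. Of 267352 gene and label pairs over the 32 labels fitted, 4.92% were called, 2.43% lower and 2.49% higher. The other 148 of 288 member and label pairs were not tested because the counts were low, and labels 1, SC and LEC had fewer than 20 cells in a library. In 27 of the 28 called pairs, *Angpt1*ΔNC lay outside the range of the controls. This position was common whether or not a gene was called. In the labels where *Sfrp1* was tested, 42.9% of all genes lay below both controls and 34.2% above both. DESeq2 called 10 pairs, 9 of them among the 28, where it called 1.74% of all pairs. These 9 were *Sfrp1* in clusters 4, 7 and 8 and TM7, *Sfrp2* in pericytes (cluster 20) and TM10, *Sfrp4* in TM9, *Dkk2* in TM8 and *Wif1* in TM2. It gave no adjusted p for *Sfrp1* in cluster 9 or for *Sfrp4* and *Wif1* in TM7, and it did not call the other 16. In 11 of the 32 labels (4, 9, 13, 21, 22, EC2, TM1, TM3, TM5, TM9 and TM11) the fitted prior was infinite, so that the spread came from the trend over genes and not from the scatter of that gene's own controls.

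**Figure D2:**
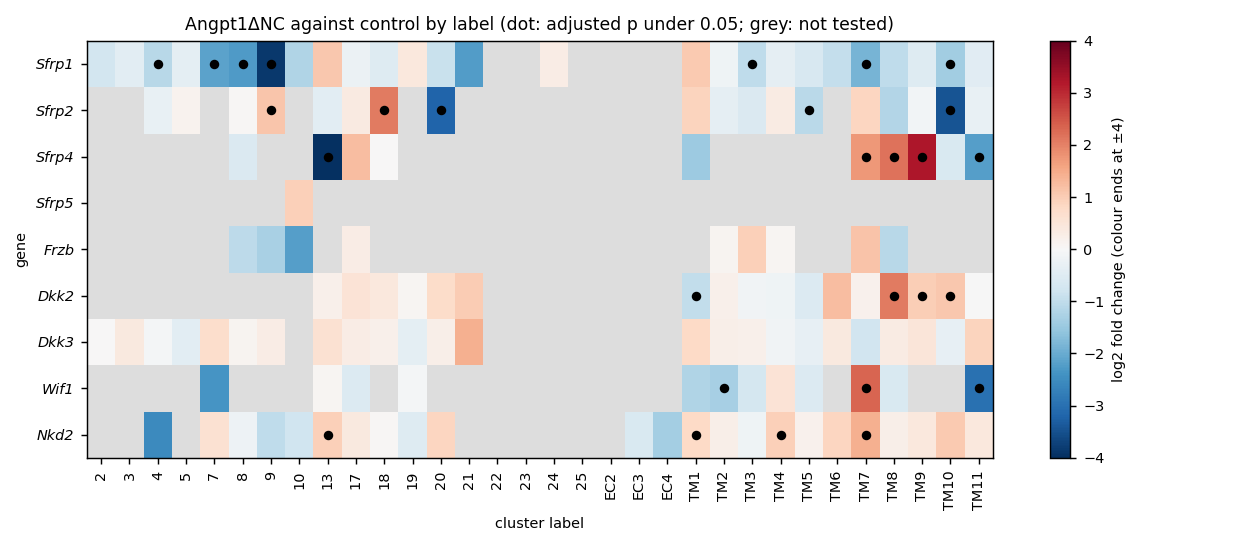
Heat map of the log2 fold change of *Angpt1*ΔNC against the 2 control libraries for each gene (rows) in the 32 labels with enough cells (columns), with blue for lower, red for higher and grey for pairs not tested. Black dots mark the 28 pairs with an edgeR adjusted p under 0.05. *Sfrp1* has 7 dots, all blue, and *Nkd2* has 4, all red.

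Of the 28 pairs, 7 were called under edgeR and under all 6 alternatives that give calls. These were *Sfrp1* in clusters 7 and 8 and in TM7, *Sfrp2* in pericytes and TM10, *Sfrp4* in TM9 and *Dkk2* in TM8. *Sfrp1* in cluster 4 missed only the fit with no filter, which called 0 of 16735 genes in that label. With male-typed cells only, 16 of the 28 were called. The pairs that did not pass there were *Sfrp1* in cluster 9 and TM10, *Sfrp2* in cluster 9, *Sfrp4* in cluster 13 and TM8, *Dkk2* in TM1 and TM9, *Wif1* in TM7, and *Nkd2* in cluster 13 and TM1, and TM11 was not tested. With female-typed *Angpt1*ΔNC cells, 22 of the 28 were called, without *Sfrp2* in cluster 18 and TM5, *Sfrp4* in TM7 and TM11, and *Nkd2* in TM4 and TM7.

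*Sfrp1*, an SFRP of epithelium and meshwork, was called lower in 7 of the 26 labels where it was tested and higher in none. Of all genes in those 26 labels, 2.58% of pairs were called lower. *Angpt1*ΔNC lay below both controls in 21 of the 26 labels, above both in 3 and between them in 2, where 42.9% of all genes lay below both controls. In limbal epithelium the log2 fold change was -1.10 (SE 0.17, edgeR adjusted p = 1.92e-08), and the controls, at 2306 and 2533 UMIs, differed by less than 1% in their summed level. In the ciliary epithelium it was -2.15 (SE 0.24, edgeR adjusted p = 0.0118), with 1294, 387 and 194 UMIs. DESeq2 called both, as it did the pigmented cells of cluster 8 and TM7, and male-typed cells gave -0.89 in cluster 4 and -2.11 in cluster 7, both still called. The call in cluster 4 was lost with no filter on low counts (-1.09), a fit that called 0 of 16735 genes in that label. Surface epithelium is not of neural crest origin. In the other surface epithelial labels *Sfrp1* had log2 fold changes of -0.72 (cluster 2), -0.43 (cluster 3) and -0.38 (cluster 5), none of which passed. In each of these labels too, *Angpt1*ΔNC lay below both controls. The fit of cluster 3 called 0 of 8953 genes, so not passing there does not set *Sfrp1* apart from other genes.

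In pigmented cells *Sfrp1* was scarce and lower still in *Angpt1*ΔNC. Cluster 8 had levels of 0.144 and 0.138 in the controls and 0.0260 in *Angpt1*ΔNC (122, 107 and 15 UMIs, log2 fold change -2.26, SE 0.31, edgeR adjusted p = 0.00219). Melanocytes had 0.128, 0.160 and 0.0126 (52, 70 and 2 UMIs, log2 fold change -3.85, SE 0.65), and because *Angpt1*ΔNC had 2 UMIs the size of that fall rests on few counts. Leukocytes of the same libraries had 0.0342, 0.0156 and 0.0183, so that the *Angpt1*ΔNC levels of both pigmented labels were near that background. Among the stromal labels, *Sfrp1* was lower in TM3 (2.63 and 2.00 against 1.17, log2 fold change -1.01), in TM7 (1.31 and 1.01 against 0.318, -1.86) and in TM10 (log2 fold change -1.40). In TM3 the female-typed *Angpt1*ΔNC cells had a level of 1.47 and the male-typed ones 0.250, from 88 and 29 cells.

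**Figure D3:**
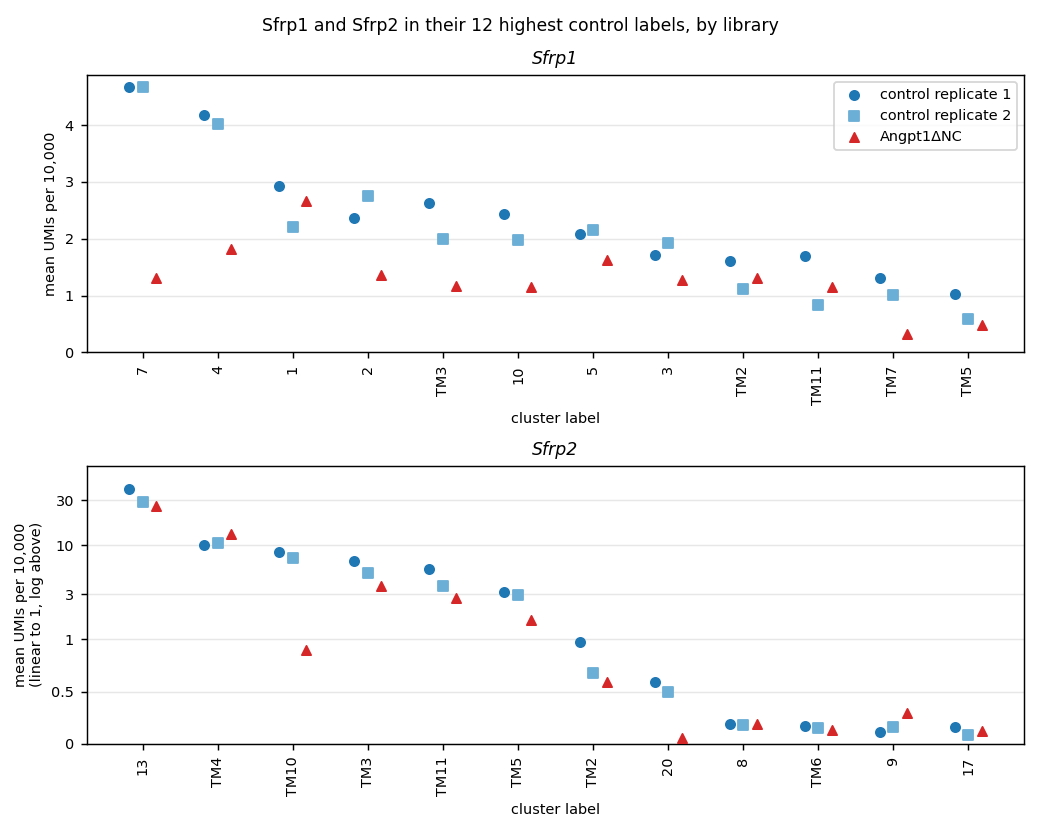
Mean UMIs per 10,000 of *Sfrp1* (top, linear axis) and *Sfrp2* (bottom, linear up to 1 and log above) in the 12 labels with the highest control level of each, with SC and LEC left out. Each point is 1 library (blue circle, control replicate 1; light blue square, control replicate 2; red triangle, *Angpt1*ΔNC), with no error bar. The red triangles of *Sfrp1* lie below both controls in clusters 7 and 4, and the triangle of *Sfrp2* in TM10 is at 0.898 under controls of 8.38 and 7.26.

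*Sfrp2*, an SFRP of fibroblasts and meshwork, had its steepest fall in TM10, where 1071 and 820 UMIs in the controls stood against 108 in *Angpt1*ΔNC. The summed level was 11.4-fold lower than the control mean (log2 fold change -3.47, SE 0.28, edgeR adjusted p = 2.67e-24), while the controls differed by 1.13-fold. An *Sfrp2* UMI was found in 41.2% (34.2 to 48.5) and 38.3% (30.9 to 46.2) of control TM10 cells and in 9.04% (5.36 to 14.1) of *Angpt1*ΔNC cells, although the latter were deeper. In TM10, 5.81% of all genes were called lower. DESeq2 called the pair too. The difference was -5.67 in male-typed cells of both genotypes and -1.87 for female-typed *Angpt1*ΔNC cells against all control cells, both called. Because the controls held almost no female-typed cells, sex and genotype differed together in the second of these fits. The typed *Angpt1*ΔNC cells themselves differed, at 0.232 in 105 male and 2.59 in 53 female cells. All 4 fibroblast markers were detected in every library of TM10, with summed levels of 47.3 and 45.1 in the controls and 61.8 in *Angpt1*ΔNC. All 5 trabecular markers were detected too, at 10.5, 10.3 and 5.10, and the part of these shifts in the result was not tested.

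Pericytes also had less *Sfrp2*, with 112, 107 and 5 UMIs (log2 fold change -3.21, SE 0.43, edgeR adjusted p = 0.000125). The share of pericytes with an *Sfrp2* UMI was 9.76% and 11.3% in the controls and 2.25% in *Angpt1*ΔNC, against 1.23%, 1.08% and 0.615% of leukocytes. The 4 pericyte markers were detected in every library, with summed levels of 98.8, 112 and 91.1. In TM5 *Sfrp2* was lower by a smaller amount (log2 fold change -1.08, SE 0.27). It was higher in melanocytes (0.110 and 0.161 against 0.295, log2 fold change 1.12) and in cluster 18, the *Ptn* *Enpp2* *Igf1* cells, where the controls had 10 and 1 UMIs and *Angpt1*ΔNC 69. With female-typed *Angpt1*ΔNC cells the difference in cluster 18 was -0.16, so that its direction turned, and without control replicate 1 it was 3.79. The labels with the highest *Sfrp2*, cluster 13 and TM4, had log2 fold changes of -0.41 (SE 0.22) and 0.32 (SE 0.18), neither of which passed. Over its 18 labels tested, *Sfrp2* was called lower in 3 and higher in 2, where 3.2% and 2.96% of all genes in those labels were called.

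*Sfrp4* rose in TM7, TM8 and TM9 and fell in cluster 13 and TM11, where its control levels disagreed. In TM9 the level was 0.0738 and 0.0481 in the controls and 0.464 in *Angpt1*ΔNC (7, 7 and 103 UMIs, log2 fold change 3.24, SE 0.37, edgeR adjusted p = 4.76e-16), and DESeq2 called it as well. The share of TM9 cells with an *Sfrp4* UMI was 2.94% and 2.01% in the controls and 14.7% (11 to 19) in *Angpt1*ΔNC, and in leukocytes it was at most 0.548%. TM8 (0.148 and 0.0614 against 0.486, log2 fold change 2.17) and TM7 (0.0928 and 0.0582 against 0.264, log2 fold change 1.75) moved the same way, TM8 by 2.78 without control replicate 1. In TM10, the label with the highest *Sfrp4*, the difference was -0.62 (SE 0.23, edgeR adjusted p = 0.0569) and did not pass. Cluster 13 had 275 and 45 UMIs in the controls and 2 in *Angpt1*ΔNC (log2 fold change -4.68, SE 0.51), with the controls 6.03-fold apart and a value of -2.87 without control replicate 1. TM11 had 35 and 2 UMIs in the controls and 5 in *Angpt1*ΔNC (log2 fold change -2.19), with the controls 28.1-fold apart and *Angpt1*ΔNC between them, and without control replicate 1 the value became 1.36. Both are labels with an infinite prior, and DESeq2 called neither. *Sfrp4* was called higher in 3 and lower in 2 of 10 labels tested, where 2.9% and 2.97% of all genes were called.

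*Dkk2*, an antagonist of the LRP co-receptors, fell in the keratocytes of TM1 and rose in TM8, TM9 and TM10, and of these 4 pairs DESeq2 called the one in TM8. In TM1 it had 609, 509 and 181 UMIs (log2 fold change -0.97, SE 0.25, edgeR adjusted p = 0.00367), and the share of positive cells was 91.8%, 84.5% and 66.1%. The 4 keratocyte markers were detected in every library of TM1, with summed levels of 162 and 160.5 in the controls and 80.2 in *Angpt1*ΔNC, and their part in the result was not tested. *Dkk2* was higher in TM8 (0.976 against 0.161 and 0.343 by summed UMIs, log2 fold change 2.07, SE 0.37, edgeR adjusted p = 0.00945), with 2.77 when control replicate 2 was left out. It was also higher in TM9 (log2 fold change 1.00, SE 0.23) and in TM10 (log2 fold change 1.08, SE 0.22), the label where *Sfrp2* fell. In TM10, 30.4% and 26.9% of control cells and 47.3% of *Angpt1*ΔNC cells had a *Dkk2* UMI, and after thinning to 2000 UMIs the shares were 14.0%, 8.92% and 22.7%. *Dkk2* was called higher in 3 and lower in 1 of 17 labels tested, where 2.32% and 2.61% of all genes were called.

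*Wif1*, which binds Wnt ligands directly, was lower in corneal endothelium at 0.877 and 1.09 in the controls and 0.442 in *Angpt1*ΔNC (log2 fold change -1.32, SE 0.22, edgeR adjusted p = 0.0209). DESeq2 called it too, while with RLE factors (relative log expression, another scaling of library size) it did not pass (-1.32, edgeR adjusted p = 0.0641). In TM11 it had 62 and 30 UMIs in the controls and 7 in *Angpt1*ΔNC (log2 fold change -2.98, SE 0.54), with control levels 3.32-fold apart, an infinite prior and a value of -1.99 without control replicate 1. It was higher in TM7, where 11 and 25 UMIs stood against 27 and the level rose from 0.0256 and 0.0541 to 0.229 (log2 fold change 2.34, SE 0.46). In the ciliary epithelium its log2 fold change of -2.37 (SE 0.47, edgeR adjusted p = 0.0783) did not pass, while DESeq2 called it. In TM4, *Angpt1*ΔNC had 1.77 above controls of 1.16 and 1.5, which did not pass (log2 fold change 0.55, SE 0.22). *Wif1* was called lower in 2 and higher in 1 of 12 labels tested, where 1.77% and 1.45% of all genes were called.

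*Nkd2*, itself a feedback inhibitor inside the cell, was called higher in 4 of 23 labels tested and lower in none, where 2.69% of all genes were called higher. The rise in TM4 was from 220 and 281 UMIs to 503 (log2 fold change 0.94, SE 0.19, edgeR adjusted p = 0.00707), and the share of positive cells was 37.4%, 37.3% and 56.6%. All 5 trabecular markers were detected in each library of TM4, but their summed level was 127 and 129 in the controls and 58.9 in *Angpt1*ΔNC, and all 4 keratocyte markers summed to 21.4, 24.7 and 41.5. Their part in the result was not tested. The log2 fold change of *Nkd2* was 1.44 (SE 0.30) in TM7, 0.97 (SE 0.25) in cluster 13 and 0.80 (SE 0.26, edgeR adjusted p = 0.0450) in TM1. In TM7 the 5 trabecular markers summed to 29.9, 40.8 and 10.4. DESeq2 called none of these 4 pairs. The pair in TM1 also did not pass with RLE factors, no filter, male-typed cells or equal numbers of cells, with edgeR adjusted p from 0.0515 to 0.236, and passed with female-typed *Angpt1*ΔNC cells (0.00395). The labels with the highest *Nkd2* did not pass, with log2 fold changes of 0.24 (SE 0.18) in TM2, -0.16 (SE 0.21) in TM3 and 0.18 (SE 0.26) in TM5.

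**Figure D4:**
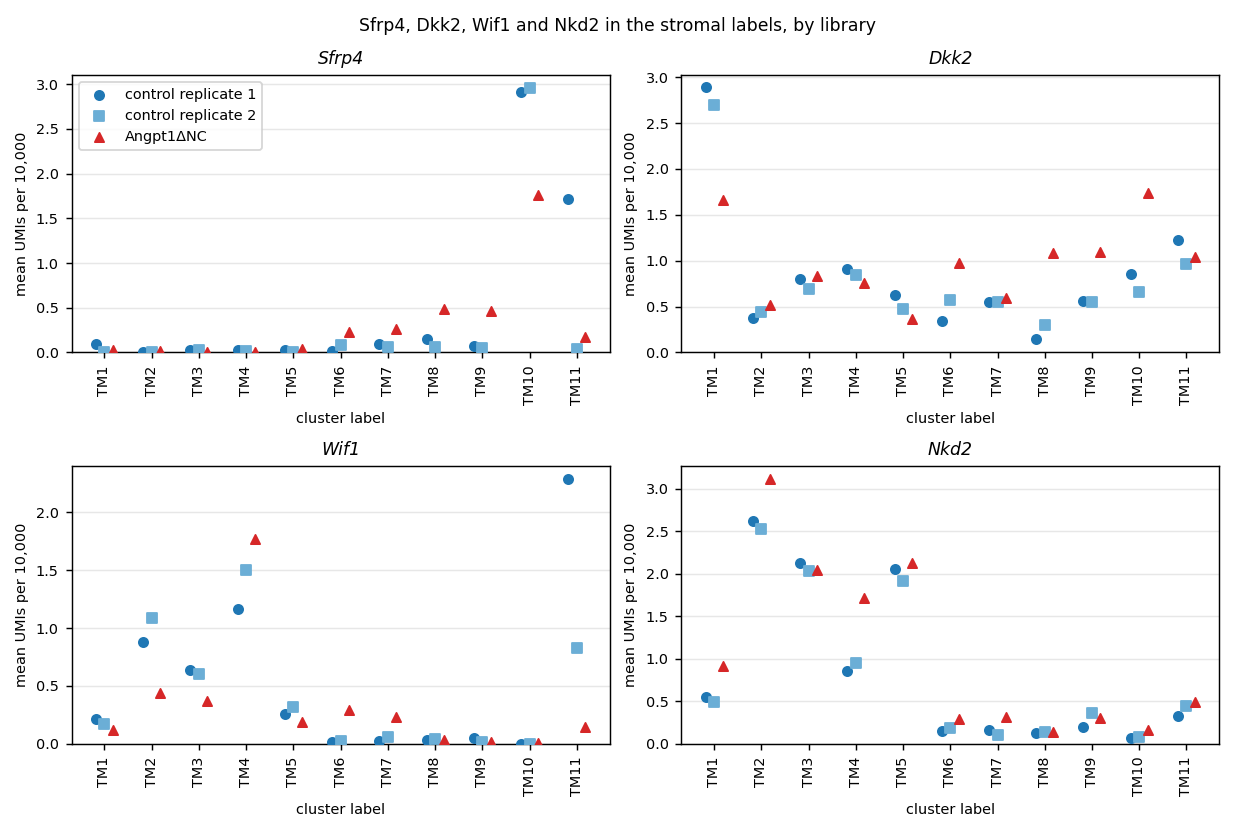
Mean UMIs per 10,000 (linear axes from 0, scaled for each panel) of *Sfrp4*, *Dkk2*, *Wif1* and *Nkd2* in the 11 stromal labels. Each point is 1 library (blue circle, control replicate 1; light blue square, control replicate 2; red triangle, *Angpt1*ΔNC), with no error bar. *Dkk2* in *Angpt1*ΔNC is below both controls in TM1 and above both in TM8, TM9 and TM10, and the controls of *Sfrp4* and *Wif1* are wide apart in TM11.

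*Dkk3*, *Frzb* and *Sfrp5* had no pair called by edgeR in 24, 9 and 1 labels tested, and DESeq2 called none of them. At an unadjusted edgeR p under 0.05, *Dkk3* passed in 5 labels, TM7 among them, *Frzb* in cluster 8 and *Sfrp5* in cluster 10. Over all genes, 2260 of 10758 passed at that level in TM7, 2707 of 11434 in cluster 8 and 683 of 6658 in cluster 10. *Dkk3* in its highest label, cluster 8, had a log2 fold change of 0.10 (SE 0.13), and its smallest adjusted p was 0.0860 in TM7 (log2 fold change -0.75, SE 0.22). *Frzb* counts were too low for small differences to be seen, with an SE of 1.36 in glia. *Sfrp5* was testable in glia only, at a log2 fold change of 0.95 (SE 0.42, edgeR adjusted p = 0.426).

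Whether the difference between genotypes varied among the stromal labels was tested with the label by genotype interaction over TM1 to TM11 (10 terms), in which the 11 labels of a library share their cells' origin but are fitted as separate sums. *Sfrp2* (edgeR adjusted p = 7.28e-06), *Dkk2* (0.000355), *Wif1* (0.00199), *Sfrp1* (0.0133) and *Sfrp4* (0.0160) passed. *Nkd2* (0.0634), *Frzb* (0.208) and *Dkk3* (0.361) did not pass. The test called 7.08% of the 11590 genes tested, against 5 of 8 members.

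Other genes of the pathway were compared in the stromal class from a list of 67 genes in 5 groups. Of 58 tested, 3 were higher and 6 lower in *Angpt1*ΔNC, where 8.97% of all genes were called. Among 13 ligand genes tested, *Wnt2* rose (0.136 and 0.0451 against 0.424, log2 fold change 2.27) and *Wnt11*, a ligand best known for signaling without β-catenin, fell (1.87 and 1.42 against 0.849, log2 fold change -0.94). Among 14 receptor genes tested, *Fzd4* (log2 fold change -1.61, SE 0.16) and *Fzd6* (-1.48, SE 0.23) were lower. Among 8 genes of the R-spondin axis, whose ligands amplify Wnt signals, *Rspo3* was lower (-1.57) and *Rspo1* (1.20) and *Rspo4* (3.31) were higher, *Rspo4* from the lowest counts. Of 9 other antagonists, *Sostdc1* (-0.81) and *Tpbg* (-0.82) were lower. None of the 14 feedback targets and mediators, *Axin2* and *Lef1* among them, was called by edgeR in the class. Of these 14, 5 had an unadjusted edgeR p under 0.05, as did 3600 of all 13942 genes tested. DESeq2 called the 6 lower genes and none of the higher ones.

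In single labels, 59 pairs of the other Wnt genes were called, 23 higher and 36 lower, of 932 tested, where 4.92% of all gene and label pairs were called. The share called was near that background, and the genes named next are given for their values only. Among the stromal labels, *Wnt11* was lower in TM1, TM2, TM3, TM5, TM7 and TM10, and its highest control level was in TM2 at 3.66 and 2.73, with 1.15 in *Angpt1*ΔNC. *Tpbg*, a membrane inhibitor of Wnt and β-catenin signaling, was lower in the stromal labels TM3, TM4, TM7 and TM9. In TM10, where *Sfrp2* was lower and *Dkk2* higher, 6 other Wnt genes were called higher and 2 lower of 35 tested. Of all genes in that label, 986 of 8527 were called. *Wnt2* was higher at 4.07 against 1.40 and 0.587 by summed UMIs (log2 fold change 2.07, SE 0.22), as were *Wnt9a* (1.92) and *Rspo1* (2.73). Of 12 receptor genes tested in TM10, 1 was called higher and 1, *Fzd4*, lower (-1.77). In limbal epithelium, where *Sfrp1* was lower, *Wnt10a* (-0.92), *Wnt11* (-1.54), *Lgr4* (-0.93) and *Tpbg* (-0.65) were lower. In the pigmented cells of cluster 8, the target *Axin2* was higher (1.05) and the feedback inhibitor *Nkd1* lower (-1.03). Of 12 feedback targets and mediators tested there, 2 were called higher and 1 lower.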

How the data were processed

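The authors made the UMI counts with Cell Ranger (2.1.1 in the submitters' processing notes, 3.0.2 in the matrix headers) on build mm10, removed doublets and cells under 200 genes, under 1000 UMIs or over 10% mitochondrial UMIs, and clustered integrated values with Seurat 3.1.3. The deposited counts are raw. The integrated natural log values that the authors deposited were not used, only the label of each kept cell.

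Levels and shares were computed with Python 3.11.15, numpy 2.4.6, pandas 2.3.3 and scipy 1.17.1. UMIs were summed per label and library (at least 20 cells in each) and tested with edgeR 4.0.16 (TMM, filterByExpr, quasi-likelihood F-test, 1 residual degree of freedom, adjusted p under 0.05). Replicates are pools of mice. An SE given with an edgeR result is the absolute log2 fold change divided by the square root of the F statistic. It therefore rests on the spread that the fit shares over genes as well as on the gene's own controls. On simulated data with 200 changed genes, 73% of 2-fold and 97% of 4-fold changes were called in the stromal class (13798 genes). In TM10 (8303 genes) the shares were 30% and 94%. The changed genes had a control mean of at least 20 UMIs, and all genes were given the same dispersion. These shares therefore do not cover pairs with lower counts. Alternatives were DESeq2 1.42.0, RLE factors, no filter, male-typed cells, equal numbers of cells per label in every library, and leaving out each control. Female-typed *Angpt1*ΔNC cells were also set against all control cells. Positions come from GENCODE M21, with 30934 of 31053 identifiers found, and figures from matplotlib 3.10.9.

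The members, gene lists and alternatives were chosen with earlier results of these data known. Named are the 9 members, up to 3 genes most like each (control level of at least 0.5 in some label), and Wnt genes called or highest in their group.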

Additional observations from a re-analysis of the deposited data

Results flagged for a closer look

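The difference between genotypes was not the same in all stromal labels for 5 members, by the edgeR test of the label by genotype interaction over TM1 to TM11. *Sfrp2* (adjusted p = 7.28e-06) was lower in TM10 and TM5, while TM4 had a log2 fold change of 0.32 that did not pass. *Dkk2* (adjusted p = 0.000355) was lower in TM1 and higher in TM8, TM9 and TM10. *Wif1* (adjusted p = 0.00199) was lower in TM2 and TM11 and higher in TM7. *Sfrp1* (adjusted p = 0.0133) was lower in TM3, TM7 and TM10, with -0.18 in TM2, which did not pass. *Sfrp4* (adjusted p = 0.0160) was higher in TM7, TM8 and TM9 and lower in TM11, where 35 of the 42 UMIs came from control replicate 1. DESeq2 called the interaction for *Sfrp2*, *Dkk2*, *Wif1* and *Sfrp1* and not for *Sfrp4* (adjusted p = 0.0893), and it called *Nkd2* (0.0103) in addition.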

How the results depend on the processing

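No paired analysis was possible because the genotypes share fewer than 2 replicate numbers. Counts of members called in the stromal class (2) became 1 with DESeq2, 1 with equal numbers of cells and 1 with female-typed *Angpt1*ΔNC cells, an alternative chosen after seeing the data. The count was 3 with male-typed cells and 2 with RLE factors or no filter. Over all genes, the edgeR fit of all cells called 1251 of 13942 in the class, and DESeq2 called 636 of 10698. Equal numbers of cells gave 1320 of 13306, female-typed *Angpt1*ΔNC cells 1203 of 13928 and male-typed cells 1765 of 13427. With RLE factors 1401 of 13942 genes were called, and with no filter 2441 of 19901. Pairs called in single labels (28) became 10 with DESeq2, and under RLE factors, no filter, male-typed cells, equal numbers of cells and female-typed *Angpt1*ΔNC cells they stayed within 21 to 27. Of all gene and label pairs, edgeR called 4.92% and DESeq2 1.74%. The interaction count was 5 to 6 under DESeq2, RLE and no filter. Over all genes, that test called 821 of 11590 with edgeR and 1022 of 10017 with DESeq2. It called 810 of 11590 with RLE factors and 1738 of 19901 with no filter. Other Wnt genes called in the stromal class (9) became 20 with no filter, 15 with male-typed cells and 5 with female-typed *Angpt1*ΔNC cells. The class counts over all genes given above also rose with no filter and male-typed cells and fell with female-typed *Angpt1*ΔNC cells. The causes were not tested.

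Some differences changed sign. With equal numbers of cells per label the stromal class log2 fold change became -0.15 for *Sfrp2*, -0.040 for *Sfrp4* and 0.0018 for *Frzb*. It became -0.025 for *Dkk2* and -0.20 for *Wif1*, and none of these genes was called under either setting. *Frzb* became 0.18 with male-typed cells. *Wif1* became -0.063 with female-typed *Angpt1*ΔNC cells and lay between -0.024 and 0.32 when either control was left out. *Sfrp2* in cluster 18 became -0.16 with female-typed *Angpt1*ΔNC cells, and *Sfrp4* in TM11 became 1.36 without control replicate 1 and -3.29 without control replicate 2. Leaving out control replicate 2 turned no sign. Thinning each cell to 1000 UMIs cut the share of positive cells, for *Dkk2* in TM1 from 88.1% to 22.3%, so such shares depend on depth.

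With 1 *Angpt1*ΔNC library, genotype and pool cannot be told apart, and sex is shared by the groups in the fit of male-typed cells alone.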
